A study of Mus musculus with 42 samples.

Results

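SMARCA2 and SMARCA4 are the alternative ATPase subunits of the BAF complex, which uses ATP to slide or evict nucleosomes and so opens chromatin at promoters and distal elements. Neurons assemble a form of BAF with subunits of their own, among them Ss18l1 (CREST), and much of the regulatory DNA of neuronal genes, including enhancers, lies in introns. The set described here comprises the sites of the euploid SMARCA2/4 peak list that the authors annotated to gene bodies, that is, sites that lay more than 3000 bp downstream of the start of the assigned transcript and no further than 1000 bp past its end. These were 6149 of the 22667 sites in the list (27.1%, Wilson 95% interval 26.6 to 27.7%), and they fell in 2430 genes. The other sites were proximal promoter (5643, within 250 bp of a start), promoter up to 1000 bp (5334), promoter up to 3000 bp (2634), intergenic (2901) and subtelomeric (6).

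SMARCA2/4 had been mapped by ChIP-seq in the hippocampus of 6 to 8 week old males, in 4 replicates per genotype with matched inputs, each replicate holding tissue of 2 animals. Euploid mice, Ts65Dn mice (a model of Down syndrome with an additional copy of distal chromosome 16 and of a proximal piece of chromosome 17) and Ts65Dn;Brwd1+/- mice, which are trisomic and also carry 1 mutant allele of Brwd1 (repro5), all came on a mixed DBA/2J and B6EiC3Sn/J background. ATAC-seq, which marks open chromatin, came from NeuN+ sorted hippocampal nuclei of adult males aged 6 weeks (3 libraries per genotype), and RNA-seq came from embryonic day 16 forebrain neuronal cultures, of which the 3 euploid libraries, with 20663650 to 23207352 counts in genes, were used. Each genotype had 1 peak list per assay, ChIP-seq or ATAC-seq, and how its libraries were combined is not stated. No replicate error therefore exists for any peak value, and depth behind the peaks is unknown. The antibody recognises both ATPases, so the sites cannot be split between them. Intervals given for shares cover counting error over peaks only and say nothing about differences between animals. They treat sites as independent, although 41.9% of gene body sites lay within 1 kb of another, so they can be too narrow. The lists differ greatly in size. Euploid, Ts65Dn and Ts65Dn;Brwd1+/- SMARCA2/4 lists held 22667, 1290 and 1873 sites, and ATAC lists held 15521, 29195 and 30244 sites.

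Sites from among the strongest of the set are shown first, because 9 of the 10 of highest fold were found in all 3 genotypes. A site in exon 4 of Ss18l1 had the highest fold enrichment over background of the set, 13.7 in the euploid list, 12.7 in the Ts65Dn list and 15.2 in the Ts65Dn;Brwd1+/- list. Exons of this gene held 7 of the 10 strongest sites, and whether Ss18l1 cDNA in the libraries had a part in them was not tested. Sites in introns of Papss2 (fold 10.6, 9.57 and 13.2 in the same order), Stxbp5l (7.95, 11.1 and 10.5) and Nrxn3 (7.13, 9.54 and 9.68) were the next strongest of those found in all 3, Ss18l1 aside. These 3 are given on the forward strand of mm10 (sequence of GRCm38.p6 from RefSeq), without capitals because they hold none of the motif letters searched below. The Papss2 sequence was 89.5% repeat-masked in the reference, and those of Stxbp5l and Nrxn3 were 100% masked.
Papss2, chr19:32642454-32642529: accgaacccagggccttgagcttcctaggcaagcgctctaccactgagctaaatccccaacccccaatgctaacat
Stxbp5l, chr16:37342305-37342368: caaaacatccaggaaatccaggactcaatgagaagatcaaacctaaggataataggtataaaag
Nrxn3, chr12:89631354-89631418: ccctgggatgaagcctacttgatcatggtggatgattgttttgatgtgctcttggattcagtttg

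Ss18l1 encodes a calcium-responsive transactivator that is a subunit of the neuronal BAF complex. It spans chr2:180042509-180070201 on the forward strand. The gene carried 9 gene body sites, which lay one on each of exons 2 to 10 and measured 129 to 244 bp against exons of 77 to 198 bp. All 9 were present in both other SMARCA2/4 lists, with euploid fold values of 5.74 to 13.7, Ts65Dn values of 5.89 to 14.5 and Ts65Dn;Brwd1+/- values of 4.16 to 15.2. A promoter site on exon 1 (fold 8.45, 6.45 and 6.90) was likewise in all 3 lists. Of the 11 stretches of coding sequence, 10 were covered, and neither the last, of 24 bases, nor the untranslated rest of exon 11 was. The sites took in 97.8% of the 1206 coding bases in the euploid list and 96.9 and 97.0% in the Ts65Dn and Ts65Dn;Brwd1+/- lists. None of the 9 overlapped an ATAC peak of any genotype, and the ATAC peaks of this gene lay at its start and 5.90 kb from the start in its first intron (euploid list). No other gene had more than 5 sites on exons (Itga11, 5 of its 6 sites, followed by B4galt5, Ephb2, Mir124a-1hg, Sipa1l1 and Syne1 with 4 each). The 9 sites thus followed the coding exons, which a cDNA also holds without the introns, in every genotype and without an ATAC peak, whereas the exon 1 site overlapped the ATAC peak at the start in all 3. Whether cloned or other cDNA of Ss18l1 entered the libraries was not tested, so the fold values of these 9 sites cannot be read as SMARCA2/4 binding alone. Expression of Ss18l1 in the euploid cultures was 43.1 TPM, a count per gene divided by its exon length and scaled to the same total in each library.

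**Figure D1:**
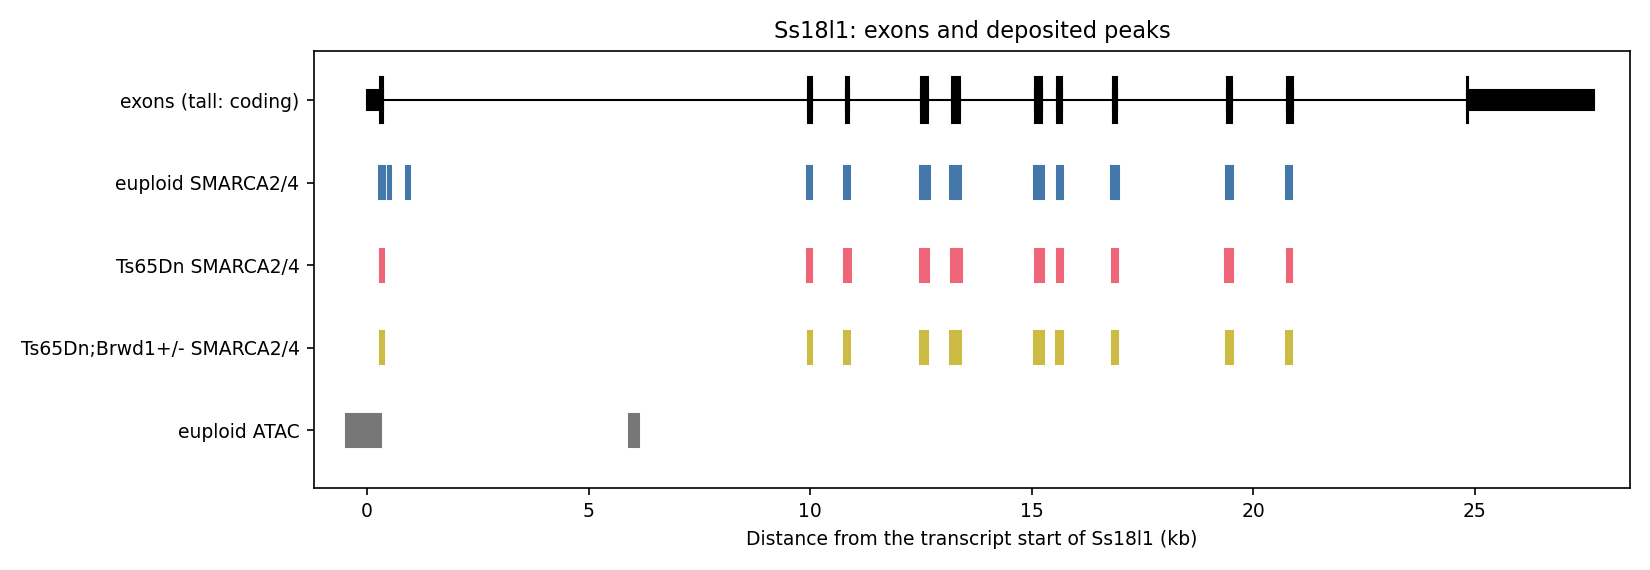
Exons of Ss18l1 (black, tall where coding) and the deposited SMARCA2/4 peaks of the 3 genotypes and euploid ATAC peaks, by distance from the transcript start in kb. Peaks of all 3 genotypes sat on exons 1 to 10 and none on exon 11, and the euploid ATAC peak within the gene body lay between exons 1 and 2.

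Apart from these few, the gene body sites were narrow and of even strength. Fold enrichment over background had a median of 3.67 with quartiles of 3.27 and 4.06, and it ranged from 1.77 to 13.7. Their width, the deposited end minus start, had a median of 88 bp and ranged from 55 to 964 bp. A q-value under 0.05 was listed for 5332 of them (86.7%), close to the 89.5% of proximal promoter and 85.9% of intergenic sites. Median fold was 3.77 in proximal promoter sites and 3.70 in intergenic sites.

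Open chromatin in neurons marked a minority of gene body sites. An overlap of at least 1 bp with a euploid ATAC peak was found for 899 of 6149 sites (14.6%, 95% interval 13.8 to 15.5%), against 26.5% of the whole euploid list. Proximal promoter sites overlapped in 50.9% of cases, a difference of -36.3 percentage points for gene bodies (Newcombe 95% interval -37.9 to -34.7). The share was also below that of intergenic sites (24.1%, difference -9.51 points, -11.3 to -7.74) and slightly above that of promoter sites between 1 and 3 kb (11.2%, difference 3.38 points, 1.85 to 4.85). In the larger ATAC lists of the trisomic genotypes, 1925 gene body sites (31.3%) overlapped a Ts65Dn peak and 1975 (32.1%) a Ts65Dn;Brwd1+/- peak, beside 44.7% and 44.1% of all euploid sites. Of the gene body sites, 829 (13.5%) were open in all 3 ATAC lists, 766 (12.5%) in both trisomic lists but not the euploid one, 16 in the euploid list alone, and 3828 (62.3%) in none. The ATAC libraries came from sorted neuronal nuclei and the ChIP libraries from whole hippocampus, and the part that other cells have in sites without an ATAC peak was not tested. Seen from the other side, 755 of 2624 euploid ATAC peaks in gene bodies (28.8%) overlapped a euploid SMARCA2/4 site, beside 31.2% of the whole euploid ATAC list.

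**Figure D2:**
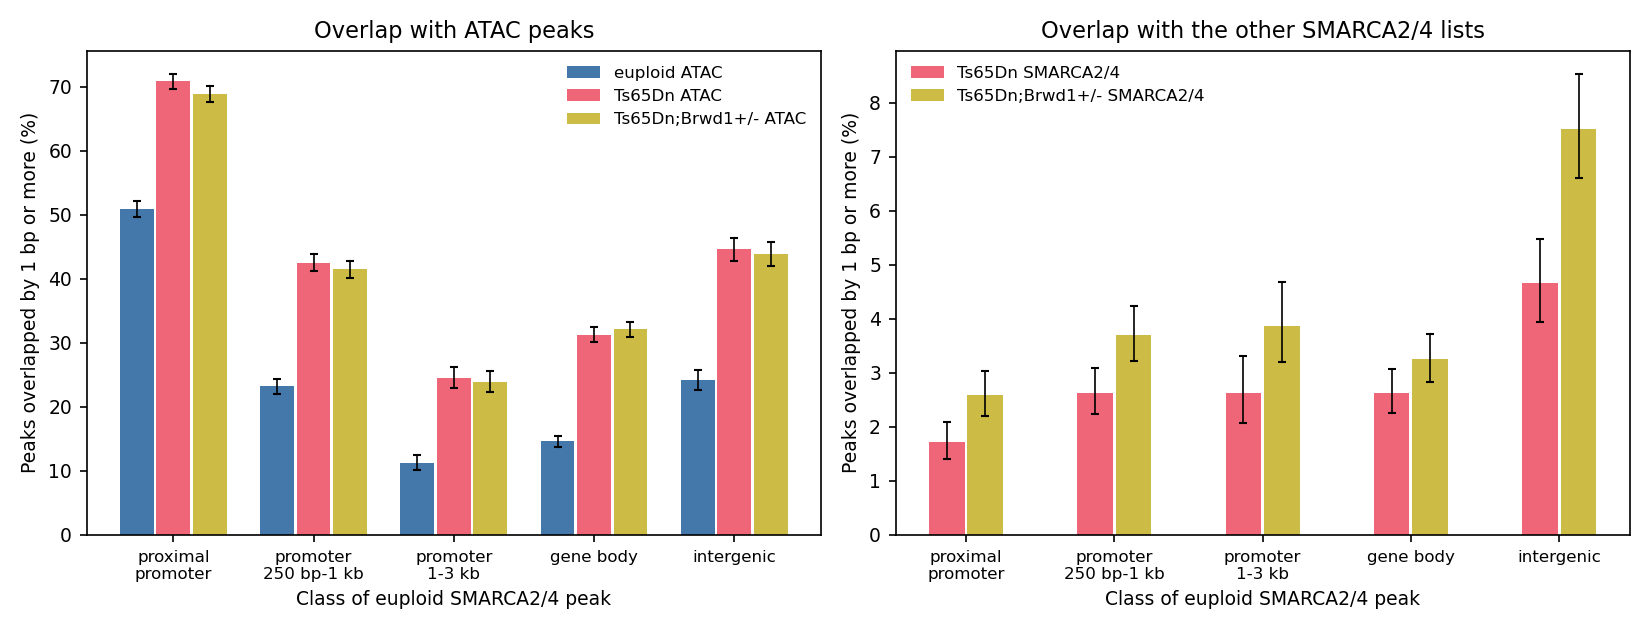
Share of euploid SMARCA2/4 sites of each class (x axis) that overlapped an ATAC peak (left) or a SMARCA2/4 peak of the trisomic genotypes (right), in percent, with Wilson 95% intervals. Gene body sites overlapped the euploid ATAC list in 14.6% of cases against 50.9% at proximal promoters, and the other SMARCA2/4 lists in 2.63 and 3.25% of cases.

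Few gene body sites recurred in the trisomic SMARCA2/4 lists. The Ts65Dn list overlapped 162 of them (2.63%, 95% interval 2.26 to 3.07%) and the Ts65Dn;Brwd1+/- list 200 (3.25%, 2.84 to 3.73%), beside 2.67% and 3.82% of the whole euploid list. Both lists overlapped 65 sites (1.06%, beside 1.07% of all euploid sites), and 5852 sites (95.2%) were in neither. Since the other lists were 17.6 and 12.1 times shorter, these shares have a low ceiling. A q-value under 0.05 was listed for 115 of the 395 Ts65Dn (29.1%) and 226 of the 447 Ts65Dn;Brwd1+/- gene body sites (50.6%). Beside these stood 23.1 and 51.5% of proximal promoter and 47.9 and 70.9% of intergenic sites in the same lists. Counting overlap only with peaks under that value in these lists lowered the gene body shares to 0.99% and 1.95%. The shares of the whole euploid list at that threshold were not computed. In the reverse direction, 164 of 395 Ts65Dn gene body sites (41.5%, 36.8 to 46.4%) and 204 of 447 Ts65Dn;Brwd1+/- gene body sites (45.6%, 41.1 to 50.3%) overlapped a euploid site, beside 48.1% and 45.9% of the whole lists. Gene body sites recurred a little more often than proximal promoter sites in the Ts65Dn list (1.72%, difference 0.92 points, 0.39 to 1.45), and less often than intergenic sites in the Ts65Dn;Brwd1+/- list (7.51%, difference -4.26 points, -5.36 to -3.24). Among the 284 gene body sites within the 1290 euploid sites of lowest q-value, a set as large as the Ts65Dn list, 52 (18.3%) were in the Ts65Dn list and 62 (21.8%) in the Ts65Dn;Brwd1+/- list. Shares over all 1290 sites were not computed, so these values do not set gene bodies apart from other strong sites.

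The strongest sites and the open sites recurred more often than the rest. Among the 615 gene body sites of highest fold, 59 (9.59%) were in the Ts65Dn list against 103 of 5534 of the rest (1.86%), a difference of 7.73 points (5.61 to 10.3), or 6.39 points (4.41 to 8.87) without Ss18l1. For Ts65Dn;Brwd1+/- the shares were 10.7% and 2.42%, a difference of 8.31 points (6.06 to 11.03). Sites open in the euploid ATAC list recurred in Ts65Dn in 6.34% of cases and other sites in 2.00% (difference 4.34 points, 2.87 to 6.16), with 8.01% and 2.44% in Ts65Dn;Brwd1+/- mice (difference 5.57 points, 3.91 to 7.57). With the sites split by fold into 10 bins, a euploid ATAC peak overlapped 19.02% in the lowest bin, 8.78% in the next and 21.1% in the highest, so openness did not rise steadily with fold. Nor did recurrence below the highest bin, since the lowest bin came next to it in both lists (3.25% in Ts65Dn and 4.39% in Ts65Dn;Brwd1+/-) and the bins between held 1.14 to 2.60% and 1.79 to 3.90%. Width went along with these groups, with a median of 135 bp in the 615 sites against 85 bp in the rest, 117 bp in open against 84 bp in other sites, and 158 bp in sites of either other list against 86 bp in sites of neither. A wider site can meet the 1 bp overlap more easily, and the part of width in recurrence was not tested.

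**Figure D3:**
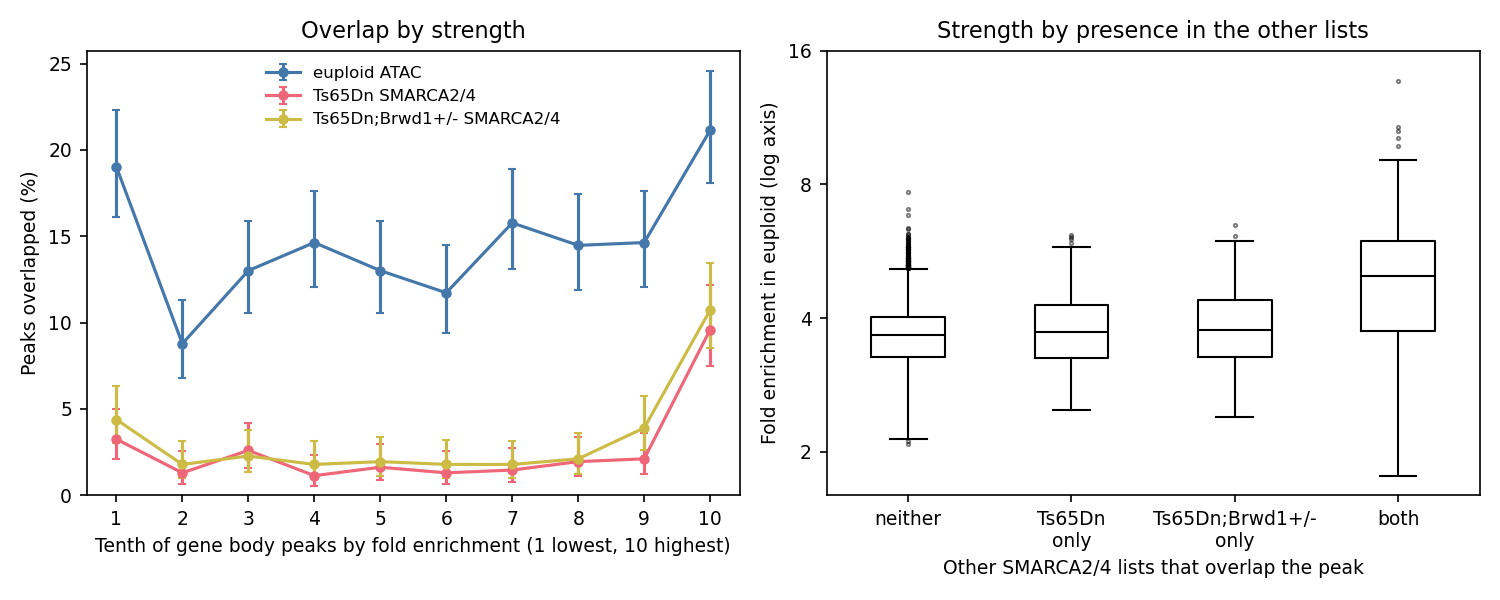
Left, share of gene body sites overlapped by the euploid ATAC list and by the 2 trisomic SMARCA2/4 lists, in percent with Wilson 95% intervals, in 10 bins of euploid fold enrichment. Right, euploid fold enrichment (log axis) by presence in the other lists, with boxes at quartiles and whiskers at 1.5 times their range. Overlap with the SMARCA2/4 lists was highest in the top bin, at 9.59 and 10.7%, and median fold was 4.97 in sites of both lists against 3.67 in sites of neither.

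The 65 sites found in all 3 genotypes fell in 53 genes and were of several kinds. The overlapping peak had a q-value under 0.05 for 41 of them in the Ts65Dn list and for 45 in the Ts65Dn;Brwd1+/- list. Median fold stood at 4.97 for euploid, 4.27 for Ts65Dn and 4.34 for Ts65Dn;Brwd1+/- mice, and since each list was called on its own, these values are not scaled to each other. One kind is the exonic sites of Ss18l1. A further 13 sites were more than 50% repeat-masked (against 5.30% of sites in neither list, difference 14.7 points, 6.76 to 26.0). Of these, 11 had a fold above 4, measured at most 75 bp and overlapped no euploid ATAC peak, and they lay in introns of Papss2, Stxbp5l, Nrxn3, Abhd6, Abca16, Serpinb3b, Mgat4c, Syne1, Cntn5, Naaladl2 and Jph1. Whether the repeats had a part in their recurrence was not tested. Open chromatin marked another kind. In all, 27 of the 65 (41.5%) overlapped a euploid ATAC peak, against 13.6% of sites in neither list (difference 27.9 points, 16.7 to 40.1), among them sites in introns of Timp2 (fold 5.88), an inhibitor of metalloproteinases, Elk3 (4.83), an ETS factor, and Mbp (3.75), a myelin protein. A further 18 sites (fold 3.25 to 7.03) belonged to none of these kinds, having no euploid ATAC peak, and among them were sites of Prrc2c (7.03), Kctd17 (6.51), Zbtb16 (5.83), Bach2 (5.58), Grik3 (3.85) and Nfix (3.44). The lowest fold values among the 65 were those of Chl1 (1.77), Cldn34d (1.80) and Cdk5rap2 (1.96), which all overlapped a euploid ATAC peak. Of the strongest sites in neither other list, those assigned to Gm14486 (fold 7.68), Itgb7 (7.04) and Kcnj9 (6.07) lay just past the end of the transcript they were assigned to. Others lay in introns of Tbc1d22a (6.82), Spred2 (6.37), Nedd4l (6.35), Gm26694 (6.19), Mdga1 (6.17) and Prickle2 (6.07), and the site assigned to Nrg2 (6.11) lay before the start of its transcript as annotated here.

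Within genes the sites were intronic in the main. The midpoint lay in the first intron for 2561 of 6131 sites whose transcript was in the annotation (41.8%, 40.5 to 43.0%), in a later intron for 2952 (48.1%), in an exon for 348 (5.68%, 5.12 to 6.28%) and past the end for 269 (4.39%). In the same transcripts beyond their first 3 kb, first introns made up 33.4% of the pooled bases and exons 1.91%, so both held more sites than their share of the pooled bases. Long transcripts weigh most in pooled bases, whereas every site has the same weight. Median gene length was 30948.5 bp for sites in exons, 124849 bp for those in first introns and 170964 bp for those in later introns. The part of this weighting in both differences was not tested. Median distance to the transcript start was 27.3 kb. Sites were spread over the whole transcript, and of 10 bins of its length the fullest held 12.4% of them and the emptiest 7.89%. Sites close to the start were less often open, with a euploid ATAC peak on 59 of 588 under 5 kb from it (10.03%) and on 182 of 1135 over 100 kb away (16.04%, difference -6.001 points, -9.13 to -2.63). By the midpoint alone, sites in genes and over 3 kb from every annotated start numbered 6.28 per Mb of such sequence, against 34.2 per Mb within 3 kb of a start and 1.95 per Mb outside genes.

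Many sites lay close together. Another gene body site lay within 1 kb of 2578 of them (41.9%, 40.7 to 43.2%), and the median distance to the nearest was 3.31 kb. Of the 2430 genes, 1284 had a single site, 289 had 5 or more, and the 87 with 10 or more held 1390 sites (22.6%). Most sites per gene were found in Nfix (47), a nuclear factor I gene, Tcf4 (46), a basic helix-loop-helix partner of proneural factors, and Gse1 (43), a component of a histone deacetylase complex. They were followed by Kalrn (34), a guanine nucleotide exchange factor of dendritic spines, Myt1l (28), a neuronal zinc finger repressor, Arid1b (28), a DNA-binding subunit of BAF, Zbtb16 (27), Btbd9 (26), Trio (25) and Prkce (25), protein kinase C epsilon. Per length, Nfix stood highest of the 10, with 48.2 sites per 100 kb of gene body over a gene of 100 kb, against 5.13 in Prkce. The Nfix sites had a median gap of 527 bp and fold values of 2.91 to 5.61, and none of the 47 overlapped a euploid ATAC peak. Nor did any of the 46 in Tcf4, whereas 8 of 43 in Gse1, 8 of 34 in Kalrn and 7 of 28 in Arid1b did. In the trisomic ATAC lists, 4 and 5 of the Nfix sites and 13 and 14 of the Gse1 sites were open. The other SMARCA2/4 lists held 2 and 4 of the Nfix sites and 1 and 2 of the Tcf4 sites.

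Long and expressed genes held most of the sites. Of 21951 protein-coding genes, 2153 (9.81%) had a gene body site. The share was 2.01% in genes under 20 kb, 19.3% at 50 to 100 kb, 48.2% at 200 to 500 kb and 55.7% above 500 kb. Median length was 89.7 kb in genes with a site (quartiles 41.4 and 186 kb) and 14.9 kb in genes without. Per length the picture was flatter, with 0.58 sites per 100 kb in genes under 20 kb, 0.68 at 100 to 200 kb and 0.33 above 500 kb. Median expression in the euploid cultures was 32.1 ± 0.35 TPM (SD of the 3 library medians, n = 3) in genes with a site and 4.29 ± 0.13 TPM in genes without, and 91.8% against 57.9% reached 1 TPM. Within every length class, genes of 1 TPM or more held more sites per 100 kb than the others, from 0.85 against 0.18 under 20 kb to 0.36 against 0.14 above 500 kb. The cultures are embryonic forebrain and the sites adult hippocampus, so these levels describe the genes and not the tissue of the sites. Genes with a site had a SMARCA2/4 promoter site in 61.8% of cases and those without in 21.7%. Among genes with 10 or more gene body sites, 78 of 87 (89.7%) had one.

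**Figure D4:**
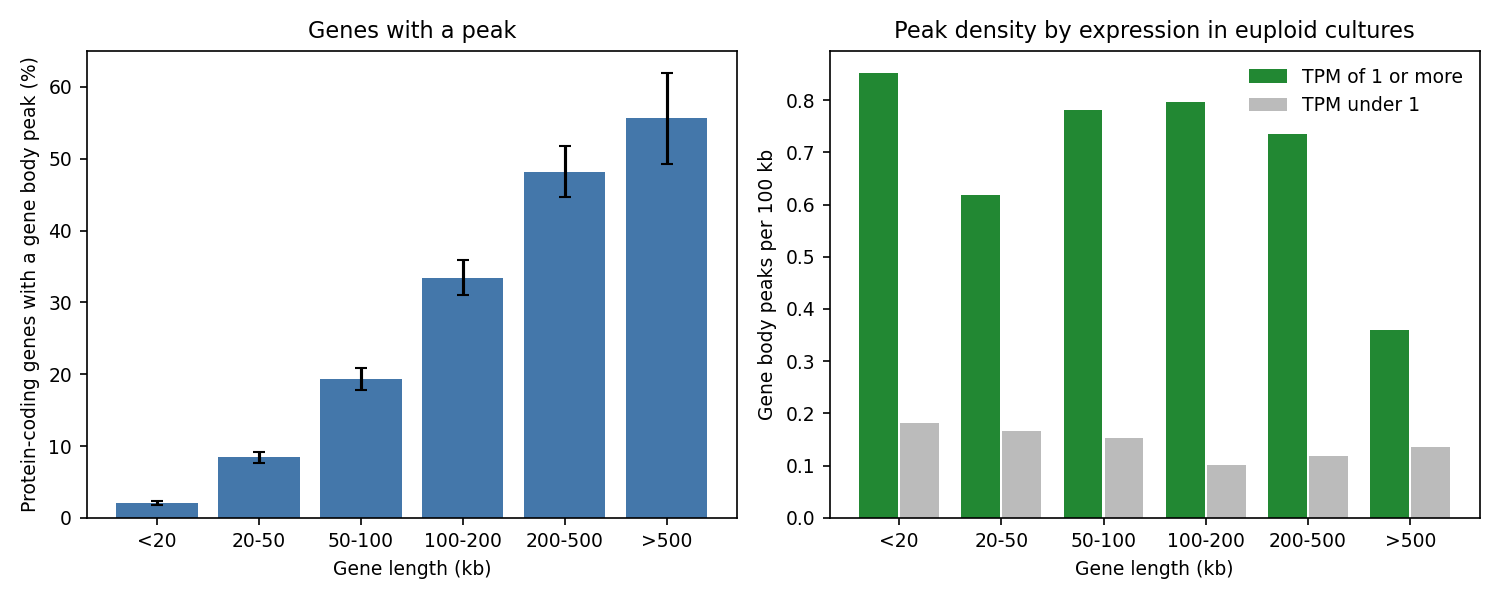
Left, percent of protein-coding genes with a euploid gene body site by gene length in kb, with Wilson 95% intervals. Right, gene body sites per 100 kb of gene body in genes of at least 1 TPM and under 1 TPM in the euploid cultures. The share rose from 2.01 to 55.7% with length, and density was higher in expressed genes in all 6 length classes.

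Of the gene lists examined, hippocampal transcription factor and postsynaptic scaffold genes carried the most sites, while receptor lists differed among themselves in both the share of genes with a site and the number of sites per length. Counts for each list stand beside the share of protein-coding genes at least as long as the median of that list. This comparison has no upper length limit, so for lists of short genes it takes in many longer genes. Of all protein-coding genes under 20 kb, 2.01% had a site. Of 20 postsynaptic scaffold and signalling genes, 16 had a site (beside 40.1%), 144 sites in all, or 2.40 per 100 kb beside 0.55. Besides Kalrn they included Dlg2 (20 sites), a scaffold of the postsynaptic density, Camk2a (18), the alpha subunit of the kinase needed for long-term potentiation, Dlgap1 (17) and Shank2 (11). The strongest were a Camk2a site in the first intron (fold 5.37) and a Dlgap2 site (4.91). Hippocampal excitatory transcription factor genes had a site in 10 of 20 cases (beside 39.2%), with the highest density of all lists, 4.47 per 100 kb beside 0.56, and 117 of the 153 sites lay in Nfix, Tcf4 and Zbtb20 (24). Bcl11b had 16 and Bcl11a 8. AMPA and kainate receptors had sites in 5 of 9 genes (beside 53.2%) and 1.115 sites per 100 kb (beside 0.46), with 10 in Gria1, 8 each in Grik4 and Grik5 and 4 in Gria2, and the strongest of these, in the first intron of Grik4 (fold 6.12), recurred in the Ts65Dn;Brwd1+/- list (4.45). NMDA receptors had sites in 2 of 7 genes (28.6%, beside 28.7%), Grin2b (18) and Grin2a (11), which gave this list 2.52 sites per 100 kb beside 0.58. The strongest Grin2b site (5.39) was open in all 3 ATAC lists. Metabotropic glutamate receptors had sites in 4 of 8 genes (beside 53.3%), 8 sites in all or 0.26 per 100 kb beside 0.46. GABA-A receptors had sites in 7 of 12 (beside 42.2%), 18 in all or 0.71 per 100 kb beside 0.54, with the strongest in Gabra2 (5.18).

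Presynaptic release genes had a site in 10 of 20 cases (beside 32.7%), led in number by Syt7 (12) and Syt1 (11), calcium sensors of release. Synaptic adhesion genes had a site in 13 of 20 cases (beside 53.2%) and 0.26 sites per 100 kb (beside 0.26), with 10 of 39 sites in Cadm1. Voltage-gated calcium and potassium channel genes had a site in 15 of 20 (beside 55.4%), among them Cacna1c (11 sites), whose strongest site (fold 4.94) was open in all 3 ATAC lists. Axon guidance genes had a site in 14 of 20 (beside 56.9%), most in Slit1 (15), Slit3 (13) and Ephb2 (11). Activity-regulated genes, of a median length of 7.04 kb, had a gene body site in 2 of 20 cases (beside 13.1%), Homer1 and Fosl2, and a promoter site in 18 (beside 25.6% of all protein-coding genes). BAF subunit genes had a site in 7 of 28 cases (beside 23.4%), 42 sites in all, of which 28 were in Arid1b and 9 in Ss18l1, and Smarca2 and Smarca4 had 1 each.

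Marker genes of other cells held few sites, though not fewer than genes of their length in every list. Sites were found in 3 of 12 astrocyte genes (beside 16.6%), namely Slc1a3 (2 sites), Gfap and Aldh1l1 (1 each), or 1.00 per 100 kb beside 0.56. Of 12 oligodendrocyte lineage genes 1 had sites (beside 17.6%), and the 6 sites of this gene, Mbp, gave the list 2.01 per 100 kb beside 0.56. Sites were in 0 of 12 microglia genes (beside 13.2%), in 2 of 12 endothelial and pericyte genes (beside 28.1%), Pecam1 (2) and Pdgfrb (1), and in 1 of 12 liver genes (beside 14.3%), Cps1 (1). A euploid promoter site was listed for 4 of 12 astrocyte and 2 of 12 oligodendrocyte lineage genes, for 0 of 12 in each of the microglia, endothelial and pericyte, and liver lists, and for 16 of the 20 hippocampal excitatory transcription factor genes, beside 25.6% of all protein-coding genes.

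In the triplicated segment, taken as chromosome 16 distal of Mrpl39 and chromosome 17 proximal of the end of Pde10a, 96 gene body sites were assigned to 22 genes, 45 sites on chromosome 16 and 51 on chromosome 17. The strongest (fold 5.37), open in all 3 ATAC lists, was assigned to Atp5o through a long transcript that carries this name, but lay 7.25 kb outside that gene and inside the span of Itsn1, which encodes an endocytic scaffold. Over the whole set, 189 sites had a midpoint outside the span of the gene they were assigned to, 183 of them past the end of the transcript. Pde10a (6 sites, strongest 5.09), Rps6ka2 (3, 4.77), Zdhhc14 (6, 4.75), App (4, 4.72), the amyloid precursor gene, Arid1b (28, 4.47), Tiam1 (10, 4.45) and Kcnj6 (14, 4.35), a G protein-gated potassium channel, followed. Itsn1, Tmem242, Nox3, Tulp4, Synj1, Synj2, B3galt5, Dyrk1a, D430001F17Rik and Gm9992 had 1 site each, Hlcs 2 and Dscam 8. Of the 96, 3 (3.13%) recurred in the Ts65Dn list and 3 in the Ts65Dn;Brwd1+/- list, beside 2.63% and 3.25% of sites elsewhere, with differences of 0.50 (-1.60 to 6.17) and -0.13 points (-2.24 to 5.55), so no difference in recurrence was detectable at these counts. Euploid ATAC peaks overlapped 21 of them (21.9%) against 14.5% elsewhere (difference 7.37 points, 0.21 to 16.7), and Ts65Dn ATAC peaks 41.7% against 31.1% (difference 10.5 points, 1.10 to 20.6). For Ts65Dn;Brwd1+/- ATAC peaks the shares were 40.6% and 31.98%, and the interval of the difference included 0 (8.64 points, -0.71 to 18.7). Arid1b held 28 of the 96 sites, and without it all 3 intervals included 0 (6.08 points, -1.88 to 17.2, for euploid, 5.62 points, -4.91 to 17.6, for Ts65Dn and 7.72 points, -3.12 to 19.7, for Ts65Dn;Brwd1+/- peaks). By chromosome the sites numbered between 204 and 514 on each autosome, but 6 on X and 1 on Y. Per Mb of coding gene body this was 0.14 on X against 3.96 to 9.51 on the autosomes. The whole euploid list had 33 sites on X, and the euploid ATAC list had 240, 15 of them in gene bodies. The cause of this gap was not tested.

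The sequence of the sites was unlike that of promoters. In 300 bp windows at the midpoints, median GC content was 49.7% (quartiles 45.7 and 54.0%), against 63.0% at proximal promoter sites, 50.7% at intergenic sites and 46.7% in windows 2 kb downstream of the gene body sites. A ratio of observed to expected CpG above 0.6 was reached by 4.78% of gene body, 68.5% of proximal promoter, 10.9% of intergenic and 1.66% of downstream windows. More than 50% of the window was repeat-masked in 2.59% of gene body sites and 13.1% of downstream windows. Reads had been kept only where they aligned uniquely, and the part of that filter in the low share was not tested.

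Windows were also searched on both strands for the letters of motifs of neuronal and general factors. AP-1 letters (TGANTCA) occurred in 18.5% of gene body windows, 8.94% of downstream windows (difference 9.51 points, 8.31 to 10.7), 16.6% of intergenic and 6.43% of proximal promoter windows. The NeuroD-type E-box (CAGATG), bound by proneural basic helix-loop-helix factors, occurred in 32.0% of gene body and 23.1% of downstream windows (difference 8.86 points, 7.29 to 10.4) and in 13.9% at proximal promoters. Intergenic windows held it in 28.7% of cases, nearer to gene bodies (difference 3.26 points, 1.22 to 5.28). A nuclear factor I motif (TTGGCA) occurred in 22.1 and 15.5% of gene body and downstream windows (difference 6.64 points, 5.26 to 8.01) and in 20.9% of intergenic windows, from which gene bodies did not differ beyond counting error (1.19 points, -0.65 to 2.99). RFX letters (GTTGCCATG) were rare, at 1.22% in gene body against 0.39% in downstream windows. They were commoner in intergenic windows (1.86%, difference for gene bodies -0.64 points, -1.26 to -0.11). SOX letters (ACAAAG) did not differ beyond counting error between gene body (21.5%) and downstream windows (22.98%, difference -1.45 points, -2.92 to 0.02), nor did the MEF2 motif (4.78 and 4.72%, difference 0.07 points, -0.69 to 0.82) or YY1 letters (AAGATGGCG, 0.10 and 0.07%). In proximal promoter windows YY1 letters were commoner than in gene body windows (1.52%, difference for gene bodies -1.43 points, -1.78 to -1.12), and so were those of 5 further motifs. These were EGR (GCGTGGG, 10.4 against 3.66%), a CTCF core (AGGGGGC, 14.1 against 6.29%), ETS (CCGGAAG, 8.91 against 1.98%), NRF1 (GCGCATGCG, 0.89 against 0.21%) and the cyclic AMP response element (TGACGTCA, 1.75 against 0.60%). All 5 were also commoner in gene body than in downstream windows. The difference was 2.10 points for EGR (1.54 to 2.67), 2.50 points for CTCF (1.73 to 3.28), 0.81 points for ETS (0.37 to 1.26), 0.15 points for NRF1 (0.01 to 0.30) and 0.34 points for the cyclic AMP response element (0.11 to 0.59). Gene body sites open in the euploid ATAC list held the E-box in 38.7% and other gene body sites in 30.9% of cases (difference 7.85 points, 4.48 to 11.3), AP-1 letters in 22.2 and 17.8% (4.44 points, 1.63 to 7.45) and RFX letters in 3.00 and 0.91% (2.09 points, 1.11 to 3.44). SOX letters went the other way, at 17.5 and 22.2% (-4.76 points, -7.37 to -1.92). GC content also differed between these windows, at a median of 52.0% in open and 49.3% in other sites, and its part in the motif shares was not tested. Gene body and downstream windows likewise differed in median GC content (49.7 and 46.7%) and in the share over 50% masked (2.59 and 13.1%). The part of both in the motif differences from downstream windows was not tested.

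**Figure D5:**
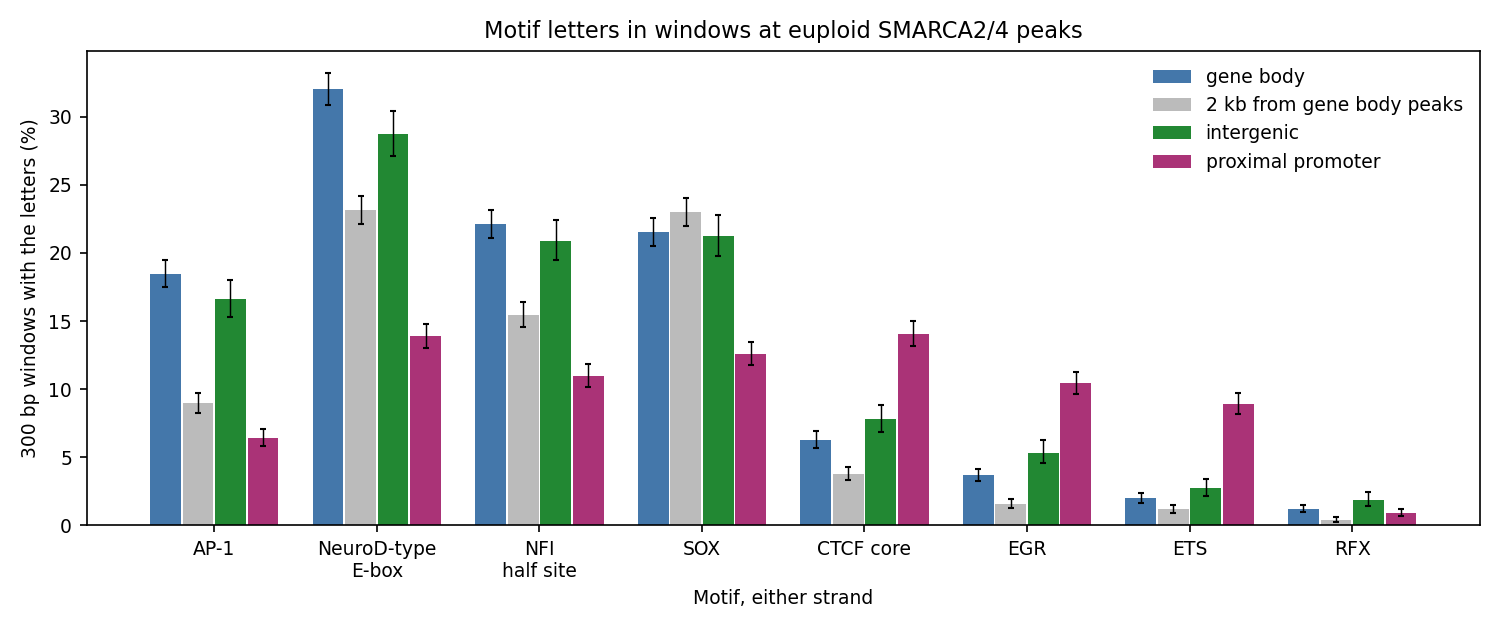
Percent of 300 bp windows holding the letters of each motif on either strand, at gene body, intergenic and proximal promoter SMARCA2/4 sites of the euploid list and 2 kb downstream of the gene body sites, with Wilson 95% intervals. AP-1, E-box and nuclear factor I letters were commoner in gene body than in downstream or proximal promoter windows, and CTCF, EGR and ETS letters were commonest at proximal promoters.

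To show such letters in place, the sites of 4 synaptic genes follow, on the forward strand of mm10 and with every motif match of the search in capitals. They are the 4 strongest that held AP-1, E-box or nuclear factor I letters within the site itself, among 31 sites of at most 300 bp named from the gene lists, of which 7 did, with sites of Ss18l1 and Nrxn3 and of 1 chromosome not considered. The Gabra2 site (fold 5.18) lies in the second intron and holds AP-1 and EGR letters. The Dlgap2 site (4.91), in the first intron, holds an E-box and SOX letters. That of Grik5 (4.69) lies just past the end of the gene and holds an E-box and a CTCF core, and that of Gria1 (4.39), in the second intron, holds a nuclear factor I motif. None of the 4 overlapped a euploid ATAC peak or a SMARCA2/4 peak of the other genotypes.
Gabra2, chr5:71061804-71062040: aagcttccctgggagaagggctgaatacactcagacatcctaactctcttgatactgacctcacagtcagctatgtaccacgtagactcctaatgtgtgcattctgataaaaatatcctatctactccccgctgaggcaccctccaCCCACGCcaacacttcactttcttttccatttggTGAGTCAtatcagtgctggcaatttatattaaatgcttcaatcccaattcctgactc
Dlgap2, chr8:14473132-14473256: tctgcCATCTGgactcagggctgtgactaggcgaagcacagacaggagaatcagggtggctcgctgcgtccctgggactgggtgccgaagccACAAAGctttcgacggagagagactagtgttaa
Grik5, chr7:25009629-25009703: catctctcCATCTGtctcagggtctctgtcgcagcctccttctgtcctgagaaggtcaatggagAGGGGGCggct
Gria1, chr11:57041947-57042061: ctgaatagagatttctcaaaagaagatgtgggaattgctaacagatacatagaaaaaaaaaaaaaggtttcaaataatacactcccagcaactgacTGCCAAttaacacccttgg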

How the data were processed

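The authors aligned ChIP-seq and ATAC-seq reads to mm10 with HISAT2, removed duplicates, and called peaks with MACS, against input for ChIP-seq. How libraries were pooled is not given in the sources used here. The deposited lists give each peak a fold enrichment (a linear ratio over background), a q-value and the region class of diffReps. SMARCA2/4 q-values in gene bodies reached 0.153 in the euploid, 1 in the Ts65Dn and 0.917 in the Ts65Dn;Brwd1+/- list, above the filter given in the methods. The authors deposited RNA read counts per gene (HISAT2 and featureCounts per the labels), and lines naming no gene (39.0 to 39.9% of counts) were left out. TPM used the union of exons of each gene in GENCODE M21.

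Here all rows of class Genebody in the euploid list were taken. Starts and ends were used as deposited and as inclusive, since their base is not stated. Overlap meant 1 bp or more. Shares carry Wilson and differences Newcombe 95% intervals, and no p-value was computed, because each genotype has 1 list per assay. Peak density left out the first 3000 bp of a gene. Genes and transcripts were matched by identifier (99.9 and 99.7% of peaks). Scripts used Python 3.11.15, pandas 2.3.3, NumPy 2.4.6, SciPy 1.17.1 and pysam 0.24.0, and interval code was tested on simulated data. Named were the 10 peaks of highest fold outside chromosome 18, the 10 genes with most peaks, the 10 strongest peaks in both and in neither other list, the 3 strongest members of each gene list and up to 20 genes of the triplicated segment. Other genes were named after their values were seen. A few genes that this rule names, and 1 sequence, are not reported here. Members, lists and motifs were chosen with earlier results of these data known.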

Additional observations from a re-analysis of the deposited data

How the results depend on the processing

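Stricter and looser definitions of overlap moved the shares. With at least 50% of the gene body site covered, 10.8% overlapped a euploid ATAC peak, 0.93% a Ts65Dn and 1.09% a Ts65Dn;Brwd1+/- SMARCA2/4 peak, and within 1 kb these were 26.7, 6.90 and 8.38%. With other-list peaks of q-value under 0.05 alone, the SMARCA2/4 shares were 0.99 and 1.95%. Restricting to gene body sites among the euploid sites of lowest q-value, as many as the Ts65Dn list holds (chosen after seeing the data), gave 32.7, 18.3 and 21.8%. The same shares over all of those lowest q-value sites were not computed. Leaving out masked sites or Ss18l1 (also chosen after seeing the data) kept all 3 shares within their intervals. By midpoint over 3 kb from every start, gene bodies held 26.1% of sites. With q-values under 0.05, median fold was 3.77. Transcript spans gave a median gene length of 59475 bp in place of 80509 bp for genes of any type. Any exon overlap raised the exon share to 6.93%. Median expression was 31.8 to 32.4 TPM with each euploid library left out, against 32.2 TPM for the mean of all, and 34.1 TPM scaled over protein-coding genes. Whole peaks had a median GC of 51.4%. In all, 17 of 36 alternatives moved a value beyond its interval. No paired analysis was possible because the results come from 1 list per genotype and assay and no test. Depth behind the peak lists is unknown, so a site that is not in a list was not shown to be absent.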
